A study of Mus musculus with 8 samples.

Results

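A pair of enema treatments of chemically induced colitis, the Chinese herbal formula Kuiyangling and the anti-inflammatory drug mesalazine, were compared directly with each other across all genes of the mouse colonic mucosa. The comparison took the 2 libraries labelled as Kuiyangling-treated and the 2 labelled as mesalazine-treated, 4 of the 8 libraries of the study, and the mesalazine animals are shown apart throughout. All animals were male wild-type C57BL/6J mice whose mucosa was taken on day 7. Mice of both treated groups drank 3% dextran sulfate sodium (DSS), a detergent-like polysaccharide that injures the colonic epithelium, and received an enema of 0.2 ml with Kuiyangling at 10 g/kg or with mesalazine at 50 mg/kg. The other 4 libraries came from healthy controls and from an untreated DSS model, 2 animals each, both given saline enemas of the same volume. These groups do not enter the contrast and serve as background, though they share in the estimate of the spread. Each treatment was given at 1 dose, and the doses of an herbal formula and of a pure drug cannot be matched by weight.

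Mesalazine, or 5-aminosalicylic acid, acts from the lumen on the colonic epithelium, where it is inactivated by arylamine N-acetyltransferases. Peroxisome proliferator-activated receptor gamma (Pparg) is widely regarded as one of its targets, and inhibition of prostaglandin and NF-kB signalling is also ascribed to it. In DSS colitis the injured epithelium makes chemokines that draw in neutrophils, secretes antimicrobial proteins of the Reg3 and lipocalin kinds, and is rebuilt by stem cells while stromal cells lay down matrix.

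The 4 libraries held 16015937 to 17622452 counts, within the range of the whole study (15560946 to 17843715). Mesalazine 2 resembled both Kuiyangling libraries as closely as these resembled each other. Its Spearman correlations across genes were 0.989 and 0.988 with Kuiyangling 1 and 2, against 0.987 between the 2 Kuiyangling libraries, and 5.01% and 5.47% of genes lay more than 2-fold apart, against 4.94%. Mesalazine 1 stood apart: its correlation was 0.945 with mesalazine 2, 0.959 with Kuiyangling 1 and 0.946 with Kuiyangling 2, and 22.2% of genes lay more than 2-fold from mesalazine 2. It gave 12.7% of its counts to ribosomal protein genes, against 5.03% to 5.77% in the other 3. Short genes were high in mesalazine 1 and long genes low, as the plot of differences by gene length shows. When the genes were put in 10 bins of equal number by length, in the bin of the shortest genes, the median difference of the Kuiyangling mean was -0.89 on the log2 scale from mesalazine 1 and 0.03 from mesalazine 2. In the bin of the longest genes it was 0.55 and -0.09. Levels are therefore printed for each mesalazine library and medians of gene lists against each, and the estimate of a gene after correction for gene length is given where that moved it by more than 1.5 times. The tissue label was met by colon genes: the carbonic anhydrase Car1 stood at 9174 to 12509 CPM (counts scaled to library size, adjusted by TMM) and the goblet cell mucin Muc2 at 3949 to 9063 CPM in the 4 libraries.

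**Figure D1:**
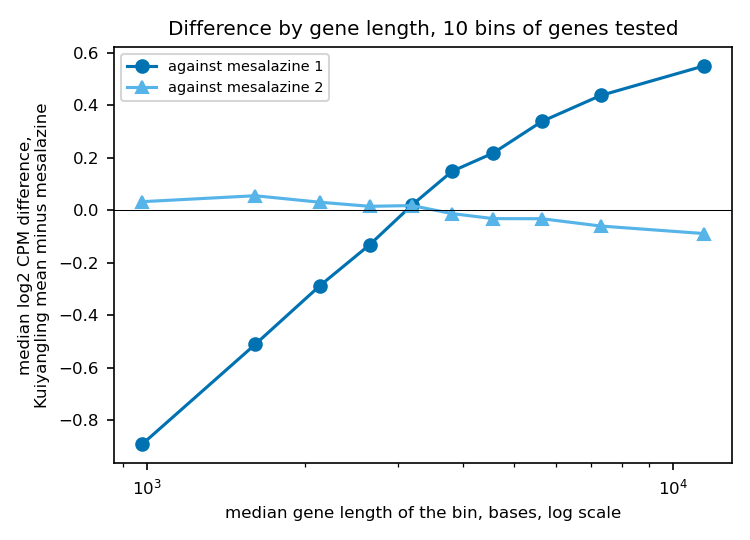
Median difference in log2 CPM between the mean of the 2 Kuiyangling libraries and each mesalazine library (vertical axis) in 10 bins of the 13381 genes tested, ordered by gene length in bases (horizontal log axis). Against mesalazine 1 the medians climb from -0.89 in the bin of the shortest genes to 0.55 in that of the longest, while against mesalazine 2 they lie between -0.09 and 0.05.

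Across all genes, no gene passed the test between the treatments. With edgeR's quasi-likelihood test, 0 of 13381 genes (0%) had a Benjamini-Hochberg adjusted p under 0.05, the lowest being 0.999. An unadjusted p under 0.05 was found for 254 genes, of which 75 were higher with Kuiyangling (0.56%) and 179 lower (1.34%). DESeq2 called 0 genes (357 at an unadjusted p under 0.05), limma on log2(FPKM + 1) called 0 (232), and limma-voom with sample quality weights called 0 (96). When genes of low counts were kept, edgeR called 3 of 17353 genes, all higher with Kuiyangling. They were Hoxb13 (adjusted p = 0.00644), Tgm3 (0.00644) and Nxpe4 (0.0232), each with a log2 change within 0.01 of that given below. What differed was the SE, at 0.81, 0.81 and 0.56 in that fit, smaller than those given below. Over the same 17353 genes, DESeq2 called 0 (lowest adjusted p 0.192). Limma on log2(FPKM + 1) without the filter also called 0 (lowest adjusted p 0.393). The test leaves wide room for differences, since the 95% interval of a log2 change reached 0.78 to either side for the median gene. These p-values rest on the spread between the 2 animals within all 4 groups, controls and DSS model included, partly shared across genes. The intervals therefore do not reflect the treated animals alone. A permutation test of single values over 2 against 2 animals cannot go below p = 0.333.

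Both Kuiyangling libraries were above both mesalazine libraries for 1413 genes (10.6%) and below both for 1547 (11.6%). Taken against each mesalazine library alone, the Kuiyangling mean was at least 2-fold above mesalazine 1 for 1158 genes (8.65%) and at least 2-fold below it for 1029 (7.69%). Against mesalazine 2 these counts were 365 (2.73%) and 144 (1.08%). Few genes met the limit against both animals: 65 were at least 2-fold above both and 41 at least 2-fold below both. The sign was the same against both animals for 5908 of 13381 genes. Another 25 genes were 2-fold below mesalazine 1 and 2-fold above mesalazine 2, and 11 the other way round.

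**Figure D2:**
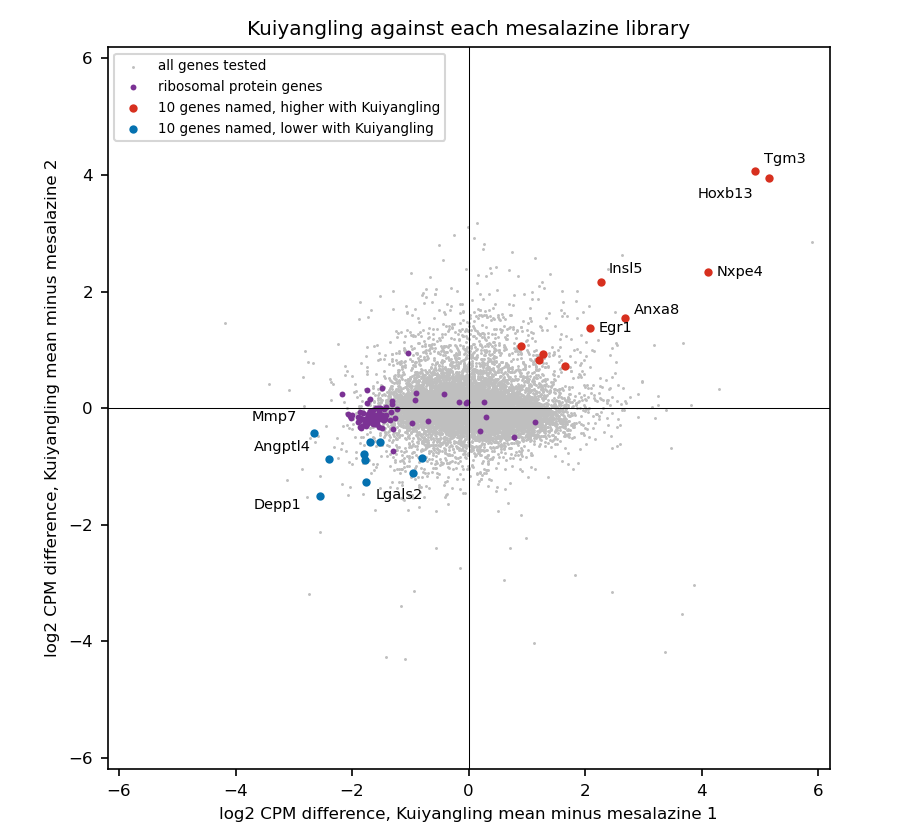
Difference in log2 CPM of the Kuiyangling mean from mesalazine 1 (horizontal axis) and from mesalazine 2 (vertical axis), 1 point per gene, with ribosomal protein genes and the 20 genes with the smallest p coloured. The cloud of 13381 genes is wider along the mesalazine 1 axis, ribosomal protein genes lie left of 0 at a median of -1.63 against mesalazine 1 and near 0 (-0.17) against mesalazine 2, and Tgm3 and Hoxb13 lie far out on both axes.

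Among the genes higher with Kuiyangling, the smallest p-values belonged to Tgm3, Hoxb13, Insl5 and Nxpe4. All 20 genes named by smallest p, 10 in each direction, had an adjusted p of 0.999 in edgeR. Tgm3, the transglutaminase that cross-links proteins in stratified and cornified epithelia, stood at 0.849 CPM in mesalazine 1, 1.63 in mesalazine 2, 12.3 in Kuiyangling 1 and 69.2 in Kuiyangling 2. Its log2 difference was 5.01 (SE 1.27, 95% interval 2.18 to 7.84). Hoxb13, the most posterior gene of the Hoxb cluster, had 3 and 11 counts with mesalazine and 95 and 446 with Kuiyangling, a log2 difference of 5.02 (SE 1.28). The same library, Kuiyangling 2, was the highest of the 4 for both genes, and neither gene overlapped between the groups. Nxpe4, a secreted-protein gene of the neurexophilin and PC-esterase family expressed in colonic epithelium, stood at 0.920 and 3.44 CPM with mesalazine and 11.8 and 26.9 with Kuiyangling (3.12, SE 0.82). Insl5, the peptide hormone of enteroendocrine cells of the distal colon, stood at 2.12 and 2.28 CPM with mesalazine and at 6.25 and 18.2 with Kuiyangling (2.47, SE 0.63). Of the 18 tested enteroendocrine and tuft cell genes, a list to which Insl5 belongs, 7 estimates lay above 0 and 11 below. Their median was -0.086, and 1 gene did not overlap with Kuiyangling higher and 1 with it lower (10.6% and 11.6% of all genes). For Insl5 itself the mesalazine animals lay close together, and the spread was between the Kuiyangling animals.

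These 4 genes also varied widely among animals that received neither treatment. Tgm3 stood at 116 and 1479 CPM in the controls and at 13.1 and 4.18 in the DSS model, and Hoxb13 at 19.9 and 175 in controls and 12.9 and 2.98 in the model. The Kuiyangling libraries lay within or above the range of the DSS model for Tgm3, Hoxb13, Insl5 and Nxpe4, and both mesalazine libraries lay below it. The segment of colon from which each sample was cut was not given in the sources used here, and its part in these differences was not tested. Among the 16 tested genes of the Hox and gut position list, 8 estimates lay above 0 and 8 below, the lowest at -0.54. In this list 3 genes had an unadjusted p under 0.05, all higher with Kuiyangling (0.56% of all genes). In the same list 5 did not overlap with Kuiyangling higher and 1 with it lower (10.6% and 11.6% of all genes), and the median was 0.26 (0.00 over all genes tested), at 0.25 against mesalazine 1 and 0.098 against mesalazine 2. Hoxa13, another posterior Hox gene, stood at 0.707 and 4.78 CPM with mesalazine and 7.36 and 14.9 with Kuiyangling (2.0, SE 0.73). Hoxa10 overlapped between the groups, at 5.59 and 13.8 against 11.9 and 27 CPM (1.0, SE 0.48). Atp12a, the apical potassium pump of the distal colon, followed the same order of libraries as Nxpe4, at 0.283 and 3.21 CPM with mesalazine and 9.03 and 63.1 with Kuiyangling (4.32, SE 1.54). Without mesalazine 1 the estimates were 1.21 for Hoxa13 and 0.48 for Hoxa10. Both were chosen after their values were seen.

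Because Tgm3 and Nxpe4 were among the genes called without the low-count filter, the 250 bases before their start sites are shown, from RefSeq (GRCm38.p6). The capitals mark TTTAT on either strand, the core of sites bound by caudal-type and posterior Hox homeodomain factors. Both genes lie on the plus strand, at chr2:130012090-130012339 and chr9:48361791-48362040.
Tgm3: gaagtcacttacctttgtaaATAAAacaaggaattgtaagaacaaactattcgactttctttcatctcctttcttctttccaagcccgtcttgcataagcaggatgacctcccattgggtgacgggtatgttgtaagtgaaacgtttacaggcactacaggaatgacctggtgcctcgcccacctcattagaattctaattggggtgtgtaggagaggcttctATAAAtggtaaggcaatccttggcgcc
Nxpe4: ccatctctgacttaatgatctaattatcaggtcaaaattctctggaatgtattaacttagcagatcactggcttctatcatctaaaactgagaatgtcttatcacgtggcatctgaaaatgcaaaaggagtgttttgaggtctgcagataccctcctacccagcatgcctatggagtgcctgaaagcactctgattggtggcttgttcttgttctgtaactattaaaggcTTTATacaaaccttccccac
Tgm3 held 2 matches, 230 and 27 bases before the start, and Nxpe4 held 1, at 20 bases. The Tgm3 match at 27 bases overlaps the letters TATAAA, those of a TATA box, on the strand of the gene. The Nxpe4 match at 20 bases overlaps these letters on the opposite strand only. Whether either works as a TATA box was not tested. TTTAT occurred in 37.3% of the 32851 windows of the same length in the RefSeq table, so a match is a description of the sequence only.

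The other genes of this direction encode proteins of varied function. Anxa8, a calcium-dependent phospholipid-binding annexin, stood at 6.65 and 14.8 CPM with mesalazine and 37.1 and 51.1 with Kuiyangling, a log2 difference of 2.03 (SE 0.54). Slc11a2, the apical importer of ferrous iron, stood at 44.9 and 85.9 CPM with mesalazine and 179 and 113 with Kuiyangling (1.16, SE 0.36, and 0.76 without mesalazine 1). It was the one gene of the 10 for which both Kuiyangling libraries lay more than 2-fold above both DSS model libraries, at 34.6 and 40.2 CPM. Steap4, a metalloreductase induced in inflammation, stood at 12.2 and 15.4 against 31.1 and 28.1 CPM (1.10, SE 0.32). Phlda1, an early response gene of growth factor signalling, stood at 25.5 and 33.4 against 60.6 and 57.4 CPM (1.0, SE 0.29). Tpm2, the beta-tropomyosin of smooth muscle, stood at 9.27 and 8.28 against 17.0 and 17.9 CPM (0.99, SE 0.29). For Steap4, Phlda1 and Tpm2 the animals of each group lay close together, and the gap between the groups was wider than the spread within them. Naming genes by small p and lack of overlap favours this pattern.

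**Figure D3:**
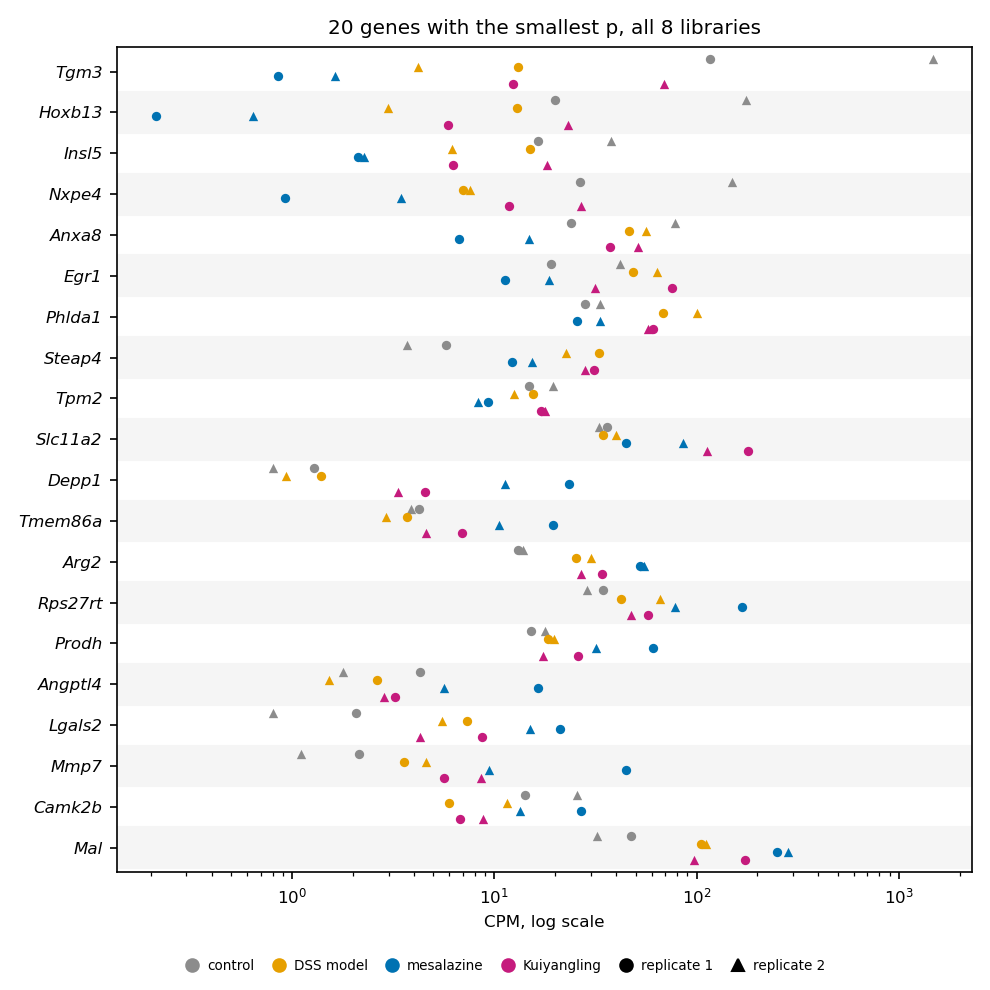
CPM (log axis) of the 10 genes with the smallest p in each direction in all 8 libraries, coloured by group, with circles for replicate 1 and triangles for replicate 2. Mesalazine and Kuiyangling points do not overlap in any row, which the rule for naming required. For all genes named as higher with Kuiyangling except Slc11a2, the mesalazine points also lie below those of the DSS model.

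Among the genes lower with Kuiyangling, the smallest p belonged to Depp1. Depp1, a target of FOXO transcription factors induced by fasting and by glucocorticoids, stood at 23.3 CPM in mesalazine 1, 11.3 in mesalazine 2, 4.52 in Kuiyangling 1 and 3.32 in Kuiyangling 2, a log2 difference of -2.14 (SE 0.46, 95% interval -3.15 to -1.12). Controls and DSS model lay between 0.801 and 1.38 CPM, so that both treated groups stood above all 4 untreated libraries. Angptl4, a secreted inhibitor of lipoprotein lipase and a PPAR target, stood at 16.4 and 5.66 CPM with mesalazine and 3.22 and 2.85 with Kuiyangling (-1.86, SE 0.59). Its difference was -2.39 from mesalazine 1 and -0.88 from mesalazine 2. Mmp7, the matrix protease matrilysin, stood at 44.6 CPM in mesalazine 1 alone, against 9.45 in mesalazine 2, 5.63 in Kuiyangling 1 and 8.61 in Kuiyangling 2. Most of the Mmp7 difference (-1.92, SE 0.62) therefore came from 1 animal, and it was -0.41 when mesalazine 1 was left out.

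Depp1 is shown as the gene with the smallest p. Its 250 bases before the start site, on the plus strand at chr6:116650434-116650683 (RefSeq, GRCm38.p6), hold 1 copy of the forkhead core GTAAANA, in capitals, searched on both strands.
Depp1: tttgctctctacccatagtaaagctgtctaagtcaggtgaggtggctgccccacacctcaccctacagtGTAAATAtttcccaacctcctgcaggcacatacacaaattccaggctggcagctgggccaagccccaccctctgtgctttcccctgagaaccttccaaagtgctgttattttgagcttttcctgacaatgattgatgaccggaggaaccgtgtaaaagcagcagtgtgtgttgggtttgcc
The match lies 181 bases before the start, and 10.9% of the windows in the table held at least 1 such match.

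The remaining genes of this direction were lower against both mesalazine animals, which the rule for naming required. Tmem86a, an enzyme that breaks down lysoplasmalogens, stood at 19.6 and 10.5 CPM with mesalazine and 6.93 and 4.57 with Kuiyangling (-1.39, SE 0.40). Prodh, the mitochondrial enzyme that starts proline breakdown, stood at 60.8 and 32.0 against 25.9 and 17.4 CPM (-1.10, SE 0.35). Arg2, mitochondrial arginase, had mesalazine animals close together, at 52.6 and 55.0 CPM, against 34.0 and 26.7 with Kuiyangling (-0.82, SE 0.25). Mal, a proteolipid of apical membrane transport, stood at 250 and 283 against 173 and 96.9 CPM (-0.98, SE 0.33), and Lgals2, an epithelial galectin, at 21.1 and 14.9 against 8.66 and 4.31 CPM (-1.48, SE 0.48). Camk2b, a calmodulin-dependent kinase subunit, stood at 27 and 13.4 against 6.74 and 8.77 CPM (-1.37, SE 0.46). Rps27rt, a retrotransposed copy of the ribosomal protein gene Rps27, stood at 168 and 78.1 against 57.4 and 47.4 CPM (-1.23, SE 0.38). Reads may be shared between Rps27rt and its parent gene, so this value is uncertain, and it was -0.38 with length correction. Arg2 was at -0.80 from mesalazine 1 and -0.86 from mesalazine 2 on the log2 scale. In the same order Mal was at -0.95 and -1.12, and Lgals2 at -1.77 and -1.27. More uneven were the differences of -1.78 and -0.89 for Tmem86a, -1.51 and -0.59 for Prodh, -1.79 and -0.79 for Camk2b and -1.69 and -0.58 for Rps27rt. Without mesalazine 1 these estimates came to -0.88, -0.57, -0.79 and -0.58, and Lgals2 was at -0.94 with length correction.

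Of the 23 tested genes of the glucocorticoid and fasting response list, to which Depp1 belongs, 1 had an unadjusted p under 0.05 and 14 estimates lay below 0, with 1 not overlapping higher and 5 lower (10.6% and 11.6% of all genes). The median was -0.19, at -0.11 against mesalazine 1 and -0.14 against mesalazine 2. Of the 27 tested PPAR target and fatty acid oxidation genes, 2 had an unadjusted p under 0.05, both lower (1.34% of all genes), and the median was -0.11 (0.0072 and -0.070). Pparg itself stood at 138 and 210 CPM with mesalazine and 215 and 188 with Kuiyangling, and overlapped (0.21, 95% interval -0.54 to 0.97). Nat2, an arylamine N-acetyltransferase, stood at 33.9 and 57.1 against 49.9 and 44.9 CPM (0.06, 95% interval -0.58 to 0.70, and -0.076 with length correction).

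Immediate early genes, which are transcribed within minutes of a stimulus, had mostly estimates above 0, that is higher with Kuiyangling. Of the 18 tested members, 16 estimates lay above 0 (6712 of 13381 over all genes), 7 did not overlap with Kuiyangling higher and 0 with it lower (10.6% and 11.6% of all genes), 2 had an unadjusted p under 0.05, and the median was 0.44 (0.50 against mesalazine 1 and 0.29 against mesalazine 2). Egr1, a zinc-finger transcription factor, stood at 11.3 and 18.7 CPM with mesalazine and 75.2 and 31.3 with Kuiyangling (1.82, SE 0.49). Fos, a subunit of the AP-1 transcription factor chosen after its values were seen, stood at 24.7 and 66.6 CPM with mesalazine and 187 and 110 with Kuiyangling (1.70, SE 0.56). Both genes were highest in Kuiyangling 1 and lowest in mesalazine 1. Their levels in the DSS model, 48.3 and 63.4 CPM for Egr1 and 124 and 160 for Fos, lay above those of both mesalazine libraries.

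Fos is shown because its upstream region carries elements known to mediate its rapid induction. In the 250 bases before the start site (plus strand, chr12:85473640-85473889, RefSeq, GRCm38.p6), the capitals mark TGACG, a half-site of the cyclic AMP response element, searched on both strands.
Fos: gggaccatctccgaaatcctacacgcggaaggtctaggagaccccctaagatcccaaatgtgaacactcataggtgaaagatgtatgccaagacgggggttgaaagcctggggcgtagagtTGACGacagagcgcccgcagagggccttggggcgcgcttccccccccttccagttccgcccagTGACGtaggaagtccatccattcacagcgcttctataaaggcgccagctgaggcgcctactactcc
There were 2 matches, 129 and 66 bases before the start, and 17.8% of the windows in the table held at least 1.

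Among genes of inflammation, chemokines that attract neutrophils had estimates in both directions. Cxcl5, an epithelial chemoattractant of neutrophils, had 20 counts in each mesalazine library and 68 and 69 with Kuiyangling, or 1.41 and 1.17 against 4.21 and 3.58 CPM (1.59, SE 0.48). In the DSS model Cxcl5 stood at 4.28 and 6.56 CPM. Its relatives Cxcl2 and Cxcl3, ligands of the same receptor, pointed the other way. Cxcl2 stood at 3.25 and 2.80 CPM with mesalazine and 2.17 and 0.934 with Kuiyangling (-0.97, SE 0.47). Cxcl3, chosen after its values were seen, stood at 3.40 and 1.23 against 0.742 and 0.519 CPM (-1.86, SE 0.68, and -0.96 without mesalazine 1). In the list of neutrophil chemoattractants and growth factors, 7 of 12 genes could be tested, of which 1 did not overlap with Kuiyangling higher and 2 with it lower (10.6% and 11.6% of all genes), and the median was -0.68 (-0.42 against mesalazine 1 and -0.51 against mesalazine 2).

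The calprotectin genes of neutrophils differed mainly through mesalazine 1. S100a8 stood at 9.27 and 3.56 CPM with mesalazine and 2.78 and 2.23 with Kuiyangling (-1.35, SE 0.55), a difference of -1.85 from mesalazine 1 and -0.49 from mesalazine 2. S100a9 stood at 10.9 and 2.86 against 3.65 and 2.23 CPM, a difference of -1.89 from mesalazine 1 and of 0.00 from mesalazine 2. With length correction the estimates were -0.45 for S100a8 and -0.36 for S100a9. Of the 18 neutrophil markers, 14 could be tested. Of these 13 estimates lay below 0, 6 did not overlap with Kuiyangling lower and 0 with it higher (11.6% and 10.6% of all genes), and the median was -1.11 (-1.11 against mesalazine 1 and -0.16 against mesalazine 2). Summed over the 18 markers the levels were 875 CPM in mesalazine 1, 127 in mesalazine 2, 213 in Kuiyangling 1 and 139 in Kuiyangling 2. Most of the 875 CPM came from Ly6g, a neutrophil surface marker chosen after its values were seen, at 843 CPM against 113, 200 and 130. Ly6g did not follow the calprotectin genes over the libraries, since in control 2 it stood at 137 CPM while S100a8 was at 0.062 CPM and S100a9 at 0. Its estimate was -1.54, and -0.82 with length correction. Summed over the 17 markers without Ly6g the levels were 32.3, 13.8, 12.9 and 9.50 CPM in the same order. In bulk tissue, fewer cells of a type and less RNA per cell cannot be told apart. Padi4 and Elane, which act in the release of neutrophil extracellular traps, had 0 counts in all 4 libraries, which in each library allows up to 3 counts, or 0.156 to 0.212 CPM, and Cxcr2, the receptor of these chemokines, had 3 counts in mesalazine 2 and 0 in the others.

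Several antimicrobial and acute-phase genes of the epithelium were high in mesalazine 1 and lower in the other 3 libraries. Reg3g, an antimicrobial lectin, stood at 8498 CPM in mesalazine 1, 1177 in mesalazine 2, 1821 in Kuiyangling 1 and 795 in Kuiyangling 2, and its log2 difference was -1.89 (SE 0.78). Lcn2, which binds bacterial siderophores, stood at 58.4, 3.97, 9.09 and 3.11 CPM in the same order (-2.35, SE 0.97), and the acute-phase protein gene Saa3 at 421, 101, 105 and 43.7 (-1.81, SE 0.63). Reg3b, a lectin like Reg3g chosen after its values were seen, stood at 46419, 4460, 10213 and 4071 CPM. Mesalazine 1 was the highest of all 8 libraries for Reg3g, Lcn2, Saa3 and Reg3b. With it left out, the differences were 0.15 for Reg3g, 0.61 for Lcn2, 0.68 for Reg3b and -0.44 for Saa3. With length correction they were -1.09 for Reg3g, -1.56 for Lcn2, -0.99 for Reg3b and -0.94 for Saa3. The whole list of 28 epithelial antimicrobial and wound genes had a median of 0.24 (0.23 against mesalazine 1 and 0.33 against mesalazine 2), with 8 not overlapping higher and 1 lower (10.6% and 11.6% of all genes).

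**Figure D4:**
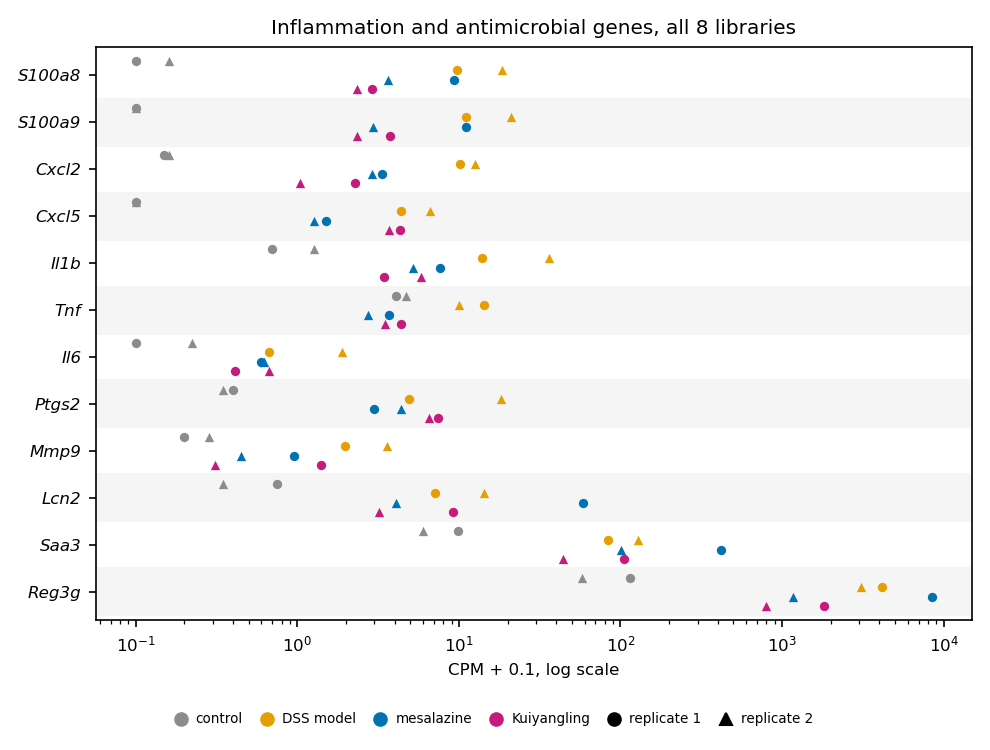
CPM plus 0.1 (log axis) of 12 inflammation and antimicrobial genes in all 8 libraries, coloured by group, with circles for replicate 1 and triangles for replicate 2. Cxcl5 (4.21 and 3.58 CPM) and Ptgs2 (7.30 and 6.44 CPM) are the genes whose Kuiyangling points lie right of both mesalazine points. For Lcn2, Saa3 and Reg3g mesalazine 1 lies to the right of every other point.

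Of the 15 tested genes of inflammatory cytokines and mediators, 5 did not overlap with Kuiyangling higher and 0 with it lower (10.6% and 11.6% of all genes), 0 had an unadjusted p under 0.05, and the median was 0.22 (0.071 against mesalazine 1 and 0.18 against mesalazine 2). Tgfb1, a cytokine of tissue repair and immune regulation and the list's member with the smallest p, stood at 1.98 and 2.63 CPM with mesalazine and 4.52 and 4.51 with Kuiyangling (0.97, 95% interval -0.038 to 1.97). Il1rn, Lif and Il33, named after their values were seen, and Ptgs2 were the others without overlap. Il1b stood at 7.50 and 5.08 CPM with mesalazine and 3.34 and 5.71 with Kuiyangling (-0.47, SE 0.51), Tnf at 3.61 and 2.63 against 4.27 and 3.37 (0.30, SE 0.38), and Il6 at 0.495 and 0.525 against 0.309 and 0.571 (-0.20, SE 0.87). Mmp9, a gelatinase of neutrophils and macrophages, stood at 0.849 and 0.350 against 1.30 and 0.208 CPM (0.32, SE 0.86). Il1b, Tnf, Il6 and Mmp9 all overlapped between the groups, and with length correction Il1b was at -0.15, Tnf at 0.51 and Il6 at 0.12. Ptgs2, the inducible cyclooxygenase, stood at 2.90 and 4.26 CPM with mesalazine and 7.30 and 6.44 with Kuiyangling (0.93, SE 0.55). For Ptgs2 the 95% interval ran from -0.30 to 2.16.

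Most genes of absorptive and goblet cells overlapped between the groups. Slc26a3, the chloride-bicarbonate exchanger of surface colonocytes, stood at 186 and 529 CPM with mesalazine and 326 and 629 with Kuiyangling (0.42, SE 0.53). The water channel Aqp8 stood at 83.3 and 399 against 380 and 490 CPM (0.85, SE 0.65), and was lowest in mesalazine 1, without which the estimate was 0.12. Car1 was at -0.01 (SE 0.45) and Muc2 at -0.18 (SE 0.45), with Muc2 at 9063 and 3949 CPM against 6457 and 5048. With length correction Car1 was at 0.19 and Muc2 at -0.56. Of the 25 colonocyte absorption and transport genes, 3 did not overlap with Kuiyangling higher (12%) and 1 with it lower (4%). Of the 18 goblet cell genes these counts were 2 (11.1%) and 0 (0%). The shares with Kuiyangling higher were close to the 10.6% of all genes, and those with it lower were below the 11.6%. Medians were of opposite sign against the mesalazine animals, at 0.68 and -0.090 for colonocyte genes and -0.52 and 0.29 for goblet cell genes. Clca1, a secreted goblet cell protein chosen after its values were seen, did not overlap, at 452 and 426 CPM with mesalazine and 761 and 739 with Kuiyangling (0.77, 95% interval -0.29 to 1.84).

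Genes of the stroma under the epithelium had medians above 0 against both mesalazine animals, and higher ones against mesalazine 2. All 11 tested smooth muscle genes had estimates above 0, and for 9 of them the groups did not overlap (10.6% of all genes with Kuiyangling higher), with a median of 0.92 (0.52 against mesalazine 1 and 1.69 against mesalazine 2). Myh11, the smooth muscle myosin heavy chain chosen after its values were seen, stood at 4.32 and 1.52 CPM with mesalazine and 9.53 and 9.76 with Kuiyangling (1.74, SE 0.79, and 2.66 without mesalazine 1). All 14 tested endothelial genes had estimates above 0, 6 of them without overlap (10.6% of all genes), with a median of 0.63 (0.24 and 1.32). Robo4, a guidance receptor of endothelial cells, stood at 0.424 and 0.292 against 1.61 and 1.45 CPM (2.08, SE 0.76). Of the 28 tested extracellular matrix and fibroblast genes, 15 did not overlap with Kuiyangling higher and 1 with it lower (10.6% and 11.6% of all genes), with a median of 0.54 (0.19 and 1.02). Col1a1, a chain of type I collagen, stood at 11.7 and 8.28 against 23.5 and 20.6 CPM (1.14, SE 0.49). Each of these lists had 1 member at an unadjusted p under 0.05. Summed levels over the lists were 106 and 128 CPM with mesalazine and 179 and 169 with Kuiyangling for the 15 smooth muscle genes, 38.8 and 15.1 against 46.2 and 35.1 for the 15 endothelial genes, and 482 and 283 against 566 and 498 for the 29 matrix genes. Among the smooth muscle genes, 1 had 0 counts in all 4 libraries. How much submucosa or muscle each sample held was not measured, and its part in these differences was not tested.

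Interferon-stimulated genes had a median of 0.83, which was 1.73 against mesalazine 1 and 0.06 against mesalazine 2. Of the 24 tested, 0 stood higher without overlap and 1 lower (10.6% and 11.6% of all genes). The summed levels were 868, 2048, 3673 and 1417 CPM in mesalazine 1, mesalazine 2, Kuiyangling 1 and Kuiyangling 2. Oasl1, an oligoadenylate synthetase-like gene, stood at 38.3 and 71.4 CPM against 173 and 64.8 (1.12, SE 0.52). Oxidative phosphorylation genes had a median of -0.50, at -0.83 against mesalazine 1 and 0.03 against mesalazine 2. In this list 24 of 25 estimates lay below 0 (6669 of 13381 over all genes). Without overlap 4 stood lower and 0 higher (11.6% and 10.6% of all genes), and 0 had an unadjusted p under 0.05. Ndufa2, a subunit of complex I and a member of the list, stood at 376 and 137 against 159 and 116 CPM (-0.90, SE 0.43). Its estimate was -0.16 with length correction and 0.0031 without mesalazine 1. Cholesterol synthesis genes had a median of 0.35 (0.47 and 0.28), with 8 of 22 higher without overlap and 0 lower (10.6% and 11.6% of all genes), and 0 at an unadjusted p under 0.05. Dhcr7, the enzyme of the last step of cholesterol synthesis, stood at 45.3 and 71.4 CPM with mesalazine and 93.3 and 105 with Kuiyangling (0.76, SE 0.36, and 0.47 without mesalazine 1).

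**Figure D5:**
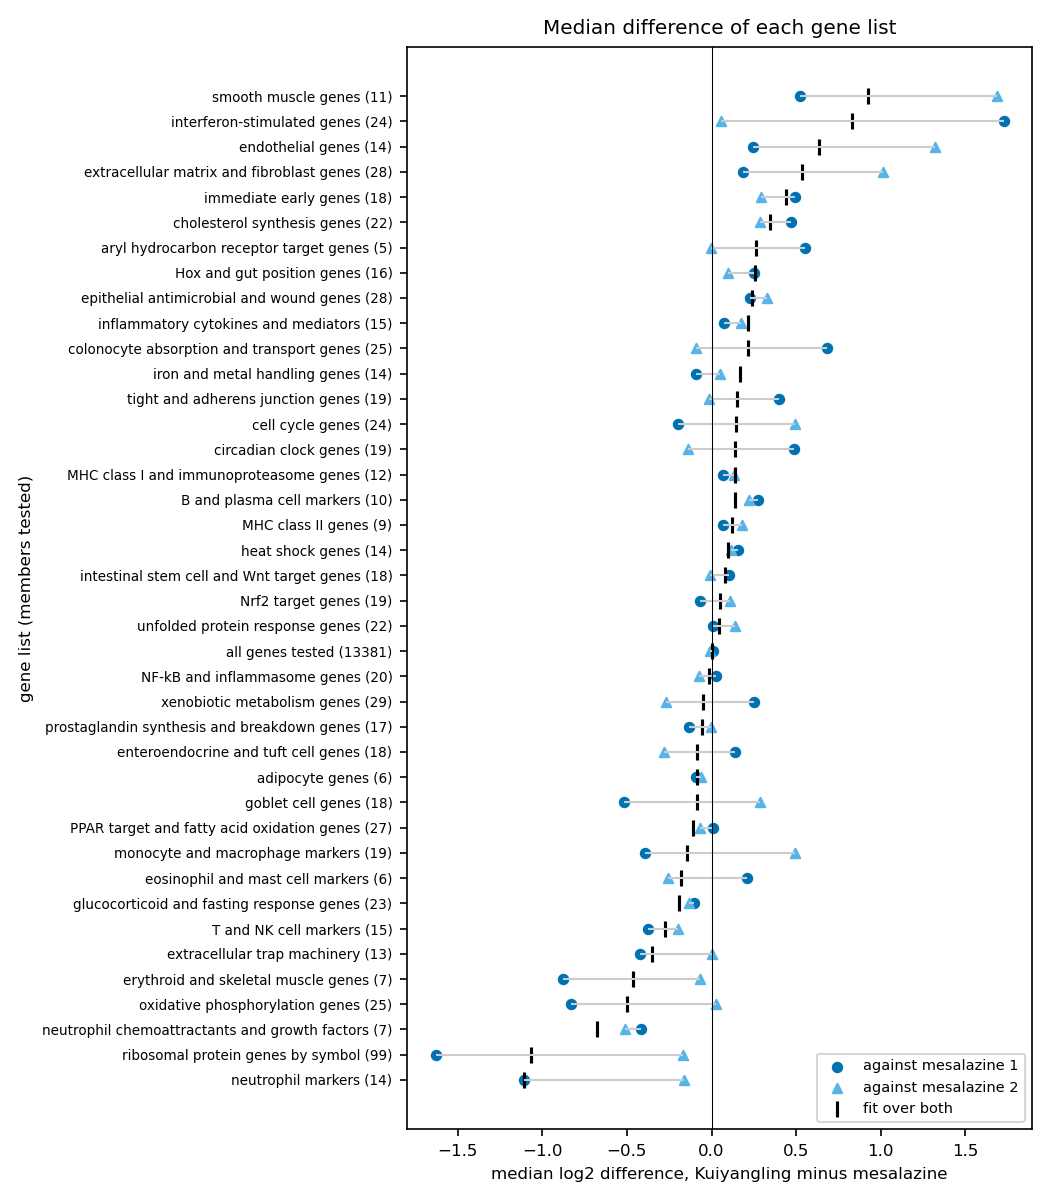
Median log2 difference, Kuiyangling minus mesalazine, of each gene list with at least 5 tested members (number in brackets), against mesalazine 1 (circles), against mesalazine 2 (triangles) and in the fit over both (bars). Smooth muscle, endothelial and matrix genes lie right of 0 against both animals, and neutrophil, oxidative phosphorylation and ribosomal protein genes lie far left only against mesalazine 1.

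Dbp, a clock output transcription factor chosen after its values were seen, stood at 32.3 and 31.9 CPM with mesalazine and 37.5 and 26.1 with Kuiyangling, a log2 difference of -0.02 (95% interval -0.65 to 0.62, and 0.054 with length correction), while the 4 untreated libraries lay between 2.87 and 9.41 CPM. Bhlhe40, a repressor of clock genes, stood at 97.2 and 142 against 221 and 171 CPM (0.71, SE 0.31, and 0.46 without mesalazine 1). Of the 19 tested circadian clock genes, 1 was higher and 1 lower at an unadjusted p under 0.05 (0.56% and 1.34% of all genes). In this list 4 did not overlap with Kuiyangling higher and 2 with it lower (10.6% and 11.6% of all genes). The list median was 0.14, at 0.49 against mesalazine 1 and -0.14 against mesalazine 2.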

How the data were processed

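Polyadenylated RNA of colonic mucosa from 8 mice was measured, 2 animals in each of 4 groups given by the labels. Per the labels' protocols, stranded mRNA libraries were made from RNA with an integrity number of at least 7. The deposited gene counts are integers, and Trimmomatic and HISAT2 are named in the submitters' processing notes without versions. Build, annotation, counter and strand setting are not given in the sources used here. The authors' deposited FPKM values follow from the counts, the library total and a single length for each gene, and gene lengths were computed from them (relative spread over libraries at most 9.5e-15).

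With edgeR 4.0.16 in R 4.3.3, the 13381 of 17353 genes passing its expression filter were scaled by TMM and tested with quasi-likelihood F tests. All 8 libraries entered 1 fit of 4 group means, with the contrast Kuiyangling minus mesalazine, and calls needed an adjusted p (Benjamini-Hochberg) under 0.05. Common biological variation (coefficient) came to 0.287 and the median SE to 0.35. Differences from single mesalazine libraries are in log2 CPM with a prior count of 2 and have no test. The floor for 0 counts was 3 counts, and floors cover counting error only. DESeq2 1.42.0 and limma 3.58.1 were alternatives, as were other scalings, filters, library sets and a gene length correction. The code was tested on simulated data.

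The comparison, the gene lists and the panel were chosen with earlier results of these data known. Since no gene was called, named genes were the 10 with the smallest p in each direction, provided that they averaged 5 CPM or more, had an established symbol and did not overlap between the groups. Then followed the member of a list with the smallest p and the panel of 20 genes found in the table. List members were left out where space was short. Genes named outside this rule are marked as chosen after their values were seen.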

Additional observations from a re-analysis of the deposited data

How the results depend on the processing

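Of 21 alternatives, 20 called 0 genes. With no low-count filter edgeR called 3 genes, 3 of them higher with Kuiyangling. Leaving out 1 library in turn called 0 genes each time, with 83 to 3256 genes at an unadjusted p under 0.05, where 3256 belongs to the fit without mesalazine 2, in which mesalazine 1 stands alone and is assumed to vary like the other groups (lowest adjusted p 0.0595). Without mesalazine 1 it was 170, and 254 with all libraries. The replicate numbers are not stated to mark shared animals or batches, and the correlation of same-numbered deviations between the mesalazine and Kuiyangling groups, over 2 numbers, was 0.162. With the replicate block 0 genes were called and 193 had an unadjusted p under 0.05. On log2(FPKM + 1) and log2(FPKM + 0.1) the median of all genes was at 0.11 and 0.17. These shifts are to be subtracted from the values of those fits below.

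For the 56 genes named with an estimate, 1129 of 1175 estimates under the alternatives had the same sign, and 46 the opposite one. Of these 46, 42 stayed opposite once the median of all genes in the fit was subtracted. The other 4 were Muc2 on log2(FPKM + 1) and log2(FPKM + 0.1), and Car1 and Dbp on log2(FPKM + 0.1). With 1 library left out in turn, the lowest and highest log2 changes of the genes whose sign turned were -1.89 and 0.031 for S100a9, -0.71 and 0.13 for Il6, -2.70 and 0.15 for Reg3g, -3.35 and 0.61 for Lcn2, -0.65 and 0.54 for Muc2, -0.16 and 1.36 for Slc26a3, -0.28 and 0.20 for Car1, -1.51 and 1.13 for Mmp9, -0.064 and 0.55 for Pparg, -0.27 and 0.49 for Nat2, -1.45 and 0.0031 for Ndufa2, -2.70 and 0.68 for Reg3b, -0.33 and 0.23 for Dbp and -2.35 and 0.54 for Ly6g. The cause of these turns was not tested. With length correction, alone and with the replicate block, Il6 was at 0.12 and 0.050, Car1 at 0.19 and 0.16, Nat2 at -0.076 and -0.075 and Dbp at 0.054 and 0.056. On log2(FPKM + 1), with and without the filter, and log2(FPKM + 0.1), Muc2 was at 0.10, 0.10 and 0.10, Car1 at 0.14, 0.14 and 0.14, and Dbp at 0.12, 0.12 and 0.13. In 2 alternatives chosen after the data were seen, signs also turned. With mesalazine 1 and control 2 left out, S100a9 was at 0.037, Reg3g at 0.16, Lcn2 at 0.61, Muc2 at 0.55, Slc26a3 at -0.14, Pparg at -0.054, Nat2 at -0.26, Ndufa2 at 0.011, Reg3b at 0.68 and Ly6g at 0.54. With sample quality weights Mmp9 was at -0.10.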

Other observations

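Ribosomal protein genes, picked by symbol, are short genes that stood high in mesalazine 1. Of 99 tested, 93 estimates lay below 0, 62 did not overlap with Kuiyangling lower and 1 with it higher, and 63 had an unadjusted p under 0.05. Over all genes 11.6% did not overlap lower, 10.6% higher, and 1.34% were lower at that p. The 63 became 0 without mesalazine 1 and 15 with length correction. The median was -1.07, at -1.63 against mesalazine 1 and -0.17 against mesalazine 2. Their median length was 833 bases, against 3475 for all genes tested. Rpl34, chosen after its values were seen, stood at 1242 CPM in mesalazine 1, 432 in mesalazine 2, 379 in Kuiyangling 1 and 323 in Kuiyangling 2, and its estimate of -1.25 was -0.80 with length correction.

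Markers of other immune cells had medians nearer 0. Of 15 tested T and NK cell markers, 14 estimates lay below 0 with a median of -0.27 (-0.38 against mesalazine 1 and -0.20 against mesalazine 2), and of 19 monocyte and macrophage markers 10 lay below 0 with a median of -0.15. Monocyte and macrophage markers were at -0.39 against mesalazine 1 and 0.49 against mesalazine 2.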
